A study of Mus musculus with 16 samples.

Results

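The 9 genes Acly, Acss1, Acss2, Cs, Slc25a1, Idh1, Idh2, Aco1 and Ogdh encode enzymes and a carrier of acetyl-CoA and citrate metabolism and of the tricarboxylic acid cycle. They were taken by name from the 21938 protein-coding genes of the GENCODE M21 annotation of the mouse genome (GRCm38), and not from any measured value. Open chromatin around them was read from ATAC-seq peak lists of 16 libraries in 4 groups of 4. ATAC-seq cuts accessible DNA with a transposase, and a peak marks a stretch where more fragments pile up than in the surrounding DNA.

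Effector T cells (TE) and memory T cells (TM) were each taken from WT and from TPdh-/- mice. The labels give the genotype as TPdh+/+ for WT and TPdh-/- for the knockout. TPdh-/- mice, adults of both sexes, carried a floxed Pdha1 (B6.129P2-Pdha1tm1ptl/J) with a Cd4-cre transgene, which is active in T cells. Per the methods, OT-I cells, T cells with a transgenic receptor for a peptide of ovalbumin (OVA), were activated in culture with OVA peptide. They were then kept in IL-2 for TE or in IL-15 for TM. The legend for the ATAC-seq names splenic T cells, and no cross of TPdh-/- mice to OT-I is described, so it is not stated that every group was OT-I. Whether the WT mice carried Cre and whether mice were pooled was not stated in the sources used here, and no label says that the 4 libraries of a group came from separate animals, so the p-values below measure the spread between libraries, which may be technical.

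As background, acetyl-CoA made from pyruvate inside the mitochondrion condenses with oxaloacetate to citrate, which either runs through the tricarboxylic acid (TCA) cycle or leaves for the cytosol. In the cytosol citrate is cleaved back to acetyl-CoA, the donor for fatty acid synthesis and for the acetylation of histones. Acetate is a second source of acetyl-CoA, through the acetyl-CoA synthetases. The pyruvate dehydrogenase complex, which TPdh-/- T cells lack, stands at the entry to this pathway, and the comparison of genotypes asks how chromatin around the genes that lie after it differs when that entry is missing.

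The following measures were read for each gene and library. A library held a gene when at least 1 bp of a peak lay in the gene or within 5000 bp to either side. A library held a gene at a start when a peak summit lay within 1000 bp of an annotated transcription start of that gene. Strength was the fold enrichment of the strongest peak, for which MACS2 divides the summit's fragment pileup, plus 1, by the background around it, plus 1. Since the libraries are of bulk cells, fewer cells with an open site and a less open site in each cell cannot be told apart.

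The lists differed in length and depth, and these values move with the groups compared. WT TE lists held 2290 to 19234 peaks, with a background coverage of 0.636 to 1.55 fragments a base. TPdh-/- TE lists held 32906 to 78635 peaks at 0.173 to 0.419, WT TM lists 13304 to 54892 at 0.354 to 0.572, and TPdh-/- TM lists 60189 to 86637 at 0.186 to 0.261. In WT TE, 26.2% to 69.5% of all peaks had their summit within 1000 bp of a coding start, and in the other 12 libraries 5.44% to 13.2% did. A few libraries stood apart in how few members or genes they held in the windows. TPdh-/- TE replicate 2 held 2 members, WT TM replicate 3 held 1 member and 21.4% of all coding genes, and WT TE replicate 3 held 4 members and 11.3% of genes. At a start these libraries held 8.17%, 4.66% and 8.36% of genes, and WT TM replicate 2, which was kept, held 7.89%. Of 8 T cell marker genes, Cd3e, Cd3g, Cd3d, Cd8a, Cd8b1, Lck and Ptprc had a start peak in 2 to 8 libraries and Cd2 in none. Among markers of other cells, Cd4, Ncr1 and Itgax had a start peak in no library and Ms4a1, Itgam and Csf1r in 2, 1 and 4 libraries. The part of list length and depth in the results below was not tested, other than by the alternatives named.

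Together the members drew 210 peaks, which merged into 120 sites. Of those sites, 96 (80.0%) were found in a single library and 14 (11.7%) in 3 or more libraries. Across the whole series, 86.9% of 525048 merged regions were found in a single library and 3.76% in 3 or more. Of the 14 sites in 3 or more libraries, 11 lay within 1000 bp of an annotated start, of the member or of a neighbouring gene. Peaks near a member's start were deeper than the others. The 88 peaks within 1000 bp of a start had a median fold enrichment of 5.24 and a median summit pileup of 7.5 fragments, against 4.22 and 5 for the 122 other peaks, of which 50, 38 of them from TPdh-/- TM, rested on 4 or fewer fragments. The groups entered these medians in unequal shares, and within groups the gap was narrower for pileup in all but WT TE. There the medians were 15 and 9 fragments, against 6 and 5 in TPdh-/- TE, 7 and 5 in WT TM and 6 and 4 in TPdh-/- TM, with fold enrichments of 5.81 and 4.81, 4.77 and 4.41, 5.50 and 4.42, and 5.06 and 3.96 in the same order.

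By their median, the members were held at a start more often than most genes, though Slc25a1 was not. Their median was 9 of 16 libraries, against 7 for 31 other genes of the pathway and 2 for all protein-coding genes. Ordered by this count, Aco1 was held in 13 libraries, Cs in 12, Idh1 in 11, Acly and Ogdh in 9 each, Acss1 and Acss2 in 8 each, Idh2 in 4 and Slc25a1 in 2. Of all coding genes, 1.17% were held at a start in at least 13 libraries and 56.2% in at least 2. Neighbours in this order differed by 0 to 4 libraries, and no test of the order was made.

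**Figure D1:**
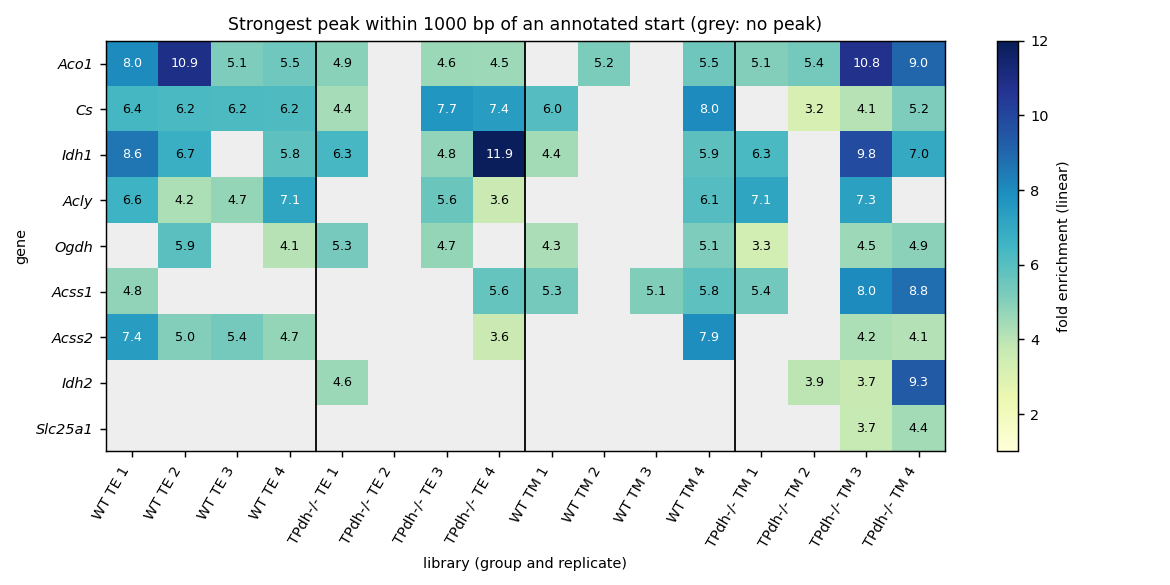
Fold enrichment (linear scale, colour and number) of the strongest peak within 1000 bp of an annotated start, for each of the 9 genes (rows) in each of the 16 libraries (columns, group and replicate); grey marks no peak. Aco1 and Cs are filled in 13 and 12 libraries, Acly, Acss2, Cs and Aco1 in every WT TE library, and Idh2 and Slc25a1 in no WT library.

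Aco1 encodes the cytosolic aconitase, which turns citrate into isocitrate and also acts as iron regulatory protein 1. The gene lies on the plus strand of chromosome 4 at 40143081 to 40198338. Its start had the most widely shared site of the list, 1016 bp from 40142751 to 40143766, whose median summit lay 1 bp from the first annotated base, in the untranslated part of the first exon. Fold enrichment there was 8.02, 10.9, 5.14 and 5.46 in WT TE replicates 1 to 4, with summit pileups of 14 to 22 fragments. In TPdh-/- TE it was 4.93, 4.60 and 4.55 in replicates 1, 3 and 4, and replicate 2 had no peak. All 4 WT TE values were above all TPdh-/- TE values. In WT TM it was 5.17 and 5.50 in replicates 2 and 4, with no peak in replicates 1 and 3, while in TPdh-/- TM it was 5.07, 5.37, 10.8 and 9.01. The summits lay from 267 bp before to 251 bp after the first annotated base.

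The 150 bases before the first annotated base of Aco1 are shown because they lie under the site that most libraries shared. They hold no CCAAT box and 1 GC box, which is in capitals (RefSeq sequence of GRCm38.p6, chr4:40142931-40143080, plus strand).
Aco1: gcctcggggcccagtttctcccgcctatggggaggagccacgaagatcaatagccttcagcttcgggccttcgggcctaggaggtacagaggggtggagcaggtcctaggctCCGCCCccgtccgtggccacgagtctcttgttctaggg

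A second site of Aco1 lay in an intron, 21804 bp after the start at 40164810 to 40164989, and was held by TPdh-/- TE replicate 2, WT TM replicate 1 and TPdh-/- TM replicate 1 with fold enrichments of 5.74, 5.48 and 5.87. For these 3 libraries it was the strongest peak of the gene. The stretch that all 3 peaks cover is shown because it is largely a simple repeat, with 50.3% of its bases masked as repeat in the reference, and it has no capitals since it held none of the motifs searched (chr4:40164812-40164968, plus strand).
Aco1 intronic site: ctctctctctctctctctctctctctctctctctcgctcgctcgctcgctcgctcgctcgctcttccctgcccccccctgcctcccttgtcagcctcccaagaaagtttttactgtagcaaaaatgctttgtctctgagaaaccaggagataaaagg

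Cs encodes citrate synthase, which joins acetyl-CoA to oxaloacetate at the entry of the TCA cycle, and lies on the plus strand of chromosome 10 at 128337734 to 128362479. A single site at its start, 802 bp from 128337532 to 128338333, was held by 12 libraries and was the only one of its 10 sites found in more than 1. Fold enrichment at the start was 6.40, 6.25, 6.24 and 6.18 in WT TE, 6.27 ± 0.0914 (SD, n = 4), the narrowest spread among the member and group pairs in which all 4 libraries had a start peak. In TPdh-/- TE it was 4.37, 7.68 and 7.40 in replicates 1, 3 and 4. In WT TM it was 6.04 and 8.01 in replicates 1 and 4, and in TPdh-/- TM it was 3.17, 4.06 and 5.15 in replicates 2 to 4. The 3 TPdh-/- TM values were below all start peaks of WT TE and WT TM, but they rested on pileups of 3, 4 and 6 fragments. TPdh-/- TM replicate 1 had no start peak, nor did the other WT TM libraries. With 0 for no peak, the mean log2 fold enrichment at the start was 1.51 in TPdh-/- TM and 1.40 in WT TM, a difference of 0.114.

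The 150 bases before the start of Cs are shown with 2 GC boxes and 2 CCAAT boxes, on either strand, in capitals (chr10:128337584-128337733, plus strand).
Cs: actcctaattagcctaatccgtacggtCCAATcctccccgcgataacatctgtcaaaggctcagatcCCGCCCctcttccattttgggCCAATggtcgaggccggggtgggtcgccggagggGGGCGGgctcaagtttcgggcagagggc

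Acly encodes ATP citrate lyase, which cleaves citrate to acetyl-CoA in the cytosol. It lies on the minus strand of chromosome 11 at 100476353 to 100528000. The 4 WT TE libraries held its start at fold enrichments of 6.63, 4.22, 4.71 and 7.11, with summits within 67 bp of the first base. TPdh-/- TE replicates 3 and 4 held it at 5.56 and 3.58, WT TM replicate 4 at 6.07 and TPdh-/- TM replicate 1 at 7.12. The other 3 WT TM libraries had no peak anywhere in the Acly window. A peak of TPdh-/- TM replicate 3 at 7.32 lay 48860 bp inside the gene, next to the start of a short annotated transcript. The window also took in the start of Klhl11, which 4 libraries held and which gave TPdh-/- TE replicate 4 its strongest peak, at 7.90, so that the strongest peak of the Acly window is not always a peak of Acly.

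Acss2 encodes the cytosolic and nuclear acetyl-CoA synthetase and lies on the plus strand of chromosome 2 at 155517948 to 155585724, with the start of Ggt7 on the other strand 289 bp away. Its start was held by all 4 WT TE libraries at 7.41, 5.04, 5.35 and 4.71. It was also held by TPdh-/- TE replicate 4 at 3.61, by WT TM replicate 4 at 7.95 and by TPdh-/- TM replicates 3 and 4 at 4.23 and 4.13. The summits in WT TE lay from 89 bp before to 35 bp after the first base of Acss2, and those of WT TM replicate 4 and TPdh-/- TM replicates 3 and 4 lay 240 to 305 bp after it, closer to the start of Ggt7 than to that base. The 2 genes cannot be told apart at this site.

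Acss1 encodes the mitochondrial acetyl-CoA synthetase and lies on the minus strand of chromosome 2 at 150618105 to 150668500. Its outermost start had a peak in TPdh-/- TM replicate 4 alone, at 3.36. The site that 8 libraries shared lay in an intron at 150666876 to 150667848, with a median summit 1166 bp inside Acss1 and 160 bp before the start of E130215H24Rik, a transcript without a protein that runs on the opposite strand. Fold enrichment there was 4.81 in WT TE replicate 1, 5.65 in TPdh-/- TE replicate 4, 5.34, 5.09 and 5.84 in WT TM replicates 1, 3 and 4, and 5.42, 8.04 and 8.78 in TPdh-/- TM replicates 1, 3 and 4. TM libraries held it in 6 of 8 cases and TE libraries in 2 of 8.

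The 150 bases before E130215H24Rik are shown because the most widely shared site of the Acss1 window lies over them. They hold none of the promoter motifs searched and 3 CpG dinucleotides, fewer than before any of the other starts shown (chr2:150667344-150667493, plus strand).
E130215H24Rik: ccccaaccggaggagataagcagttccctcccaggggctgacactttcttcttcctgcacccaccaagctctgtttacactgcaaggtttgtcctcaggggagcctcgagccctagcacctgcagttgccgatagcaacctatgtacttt

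Idh1 and Idh2 encode the NADP-dependent isocitrate dehydrogenases of the cytosol and the mitochondrion. They catalyse the same step, and their starts were covered very differently. Idh1 lies on the minus strand of chromosome 1 at 65158616 to 65186500 and faces the start of Pikfyve, 183 bp away on the plus strand, so a peak between them belongs to both. This shared start was held by 10 libraries. Fold enrichment there was 8.56, 4.24 and 5.81 in WT TE replicates 1, 2 and 4, and 6.34, 4.77 and 11.9 in TPdh-/- TE replicates 1, 3 and 4. It was 5.87 in WT TM replicate 4 and 6.28, 8.60 and 6.60 in TPdh-/- TM replicates 1, 3 and 4. The 11.9 of TPdh-/- TE replicate 4, at a summit pileup of 17 fragments, was the strongest peak of the whole list.

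The 182 bases between Idh1 and Pikfyve are shown as read on the strand of Idh1, with 2 GC boxes, 1 CCAAT box and 2 ETS cores, on either strand, in capitals (chr1:65186501-65186682, minus strand).
Idh1 to Pikfyve: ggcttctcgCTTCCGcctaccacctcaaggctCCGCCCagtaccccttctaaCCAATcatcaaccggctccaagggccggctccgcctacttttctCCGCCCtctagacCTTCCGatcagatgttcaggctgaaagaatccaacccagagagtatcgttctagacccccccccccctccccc

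Idh1 had a second site, which no neighbouring gene shares, in an intron at 65178362 to 65179330. Its median summit lay 7883 bp after the outermost start and 564 bp after an inner annotated start. It was held by WT TE replicates 2 and 4 at 6.73 and 4.86, by WT TM replicate 1 at 4.43 and by TPdh-/- TM replicates 1, 3 and 4 at 4.58, 9.85 and 6.96. No TPdh-/- TE library held it. For WT TE replicate 2 and TPdh-/- TM replicates 3 and 4 it was stronger than the outer start. The 4.86 of WT TE replicate 4 was at a separate summit 34 bp from the inner start, and its other peak here, at 4.12, overlapped those of the other libraries. The 123 bases that peaks of all 6 libraries cover are shown because they are the stretch shared at this site. They hold 2 CpG dinucleotides and none of the motifs searched, while the RefSeq window of the inner start beside them holds 23 CpG dinucleotides, 1 GC box and 1 ETS core (chr1:65178508-65178630, minus strand).
Idh1 inner site: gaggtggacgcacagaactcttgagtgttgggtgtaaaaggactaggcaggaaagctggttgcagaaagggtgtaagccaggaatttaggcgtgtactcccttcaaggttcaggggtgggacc

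Idh2 lies on the minus strand of chromosome 7 at 80094846 to 80115392. No WT library had a peak within 1000 bp of any of its annotated starts. TPdh-/- TE replicate 1 held the outermost start at 4.57, TPdh-/- TM replicates 3 and 4 held it at 3.67 and 5.06, and TPdh-/- TM replicate 4 had a stronger peak of 9.34 at 615 bp before the first base. TPdh-/- TM replicate 2 had peaks of 3.93 and 3.17 near inner starts, 232 and 836 bp from them. The peaks within 1000 bp of a start rested on 3 to 6 fragments, other than the 9.34 before the start, which rested on 12.

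Ogdh encodes the E1 subunit of the 2-oxoglutarate dehydrogenase complex, a relative of the pyruvate dehydrogenase complex with which it shares the Dld subunit. It lies on the plus strand of chromosome 11 at 6291633 to 6356642. Its start was held by 9 libraries at low to middling strength. Fold enrichment was 5.92 and 4.08 in WT TE replicates 2 and 4, 5.32 and 4.71 in TPdh-/- TE replicates 1 and 3, 4.29 and 5.13 in WT TM replicates 1 and 4, and 3.28, 4.54 and 4.89 in TPdh-/- TM replicates 1, 3 and 4. The ranges of the 4 groups overlapped. The 150 bases before Ogdh are shown for a cAMP response element, TGACGTCA, that 2.31% of 20150 promoter windows of RefSeq hold and no other member does. It stands in a run of capitals with overlapping TGACG cores, beside 1 further core, 2 CCAAT boxes and 1 GC box on either strand (chr11:6291483-6291632, plus strand).
Ogdh: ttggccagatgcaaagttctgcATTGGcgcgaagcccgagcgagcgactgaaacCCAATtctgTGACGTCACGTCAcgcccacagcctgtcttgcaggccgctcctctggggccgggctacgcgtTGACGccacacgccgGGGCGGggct

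Slc25a1 encodes the citrate carrier, which exports citrate from the mitochondrion, and at 2997 bp on the minus strand of chromosome 16 (17925223 to 17928219) it is the shortest member. The summit nearest to its outermost start was that of TPdh-/- TM replicate 3, at 3.74 and 497 bp upstream, and TPdh-/- TM replicate 4 had a peak of 4.42 that lay 1281 bp inside the gene near an inner start. The most widely shared site of its window, held by 3 libraries, lay 6386 bp past the gene's start and 210 bp before the start of AA914427, a tentatively annotated transcript. The sequence before Slc25a1 is shown for contrast, since 4 GC boxes, 1 CCAAT box and 15 CpG dinucleotides in 150 bases, more of each but the CCAAT box than in the same stretch before Aco1 or Cs, stood at a start where no library had a summit this near (chr16:17928220-17928369, minus strand).
Slc25a1: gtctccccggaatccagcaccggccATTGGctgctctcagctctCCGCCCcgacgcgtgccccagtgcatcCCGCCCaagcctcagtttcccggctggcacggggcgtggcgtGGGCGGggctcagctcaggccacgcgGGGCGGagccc

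**Figure D2:**
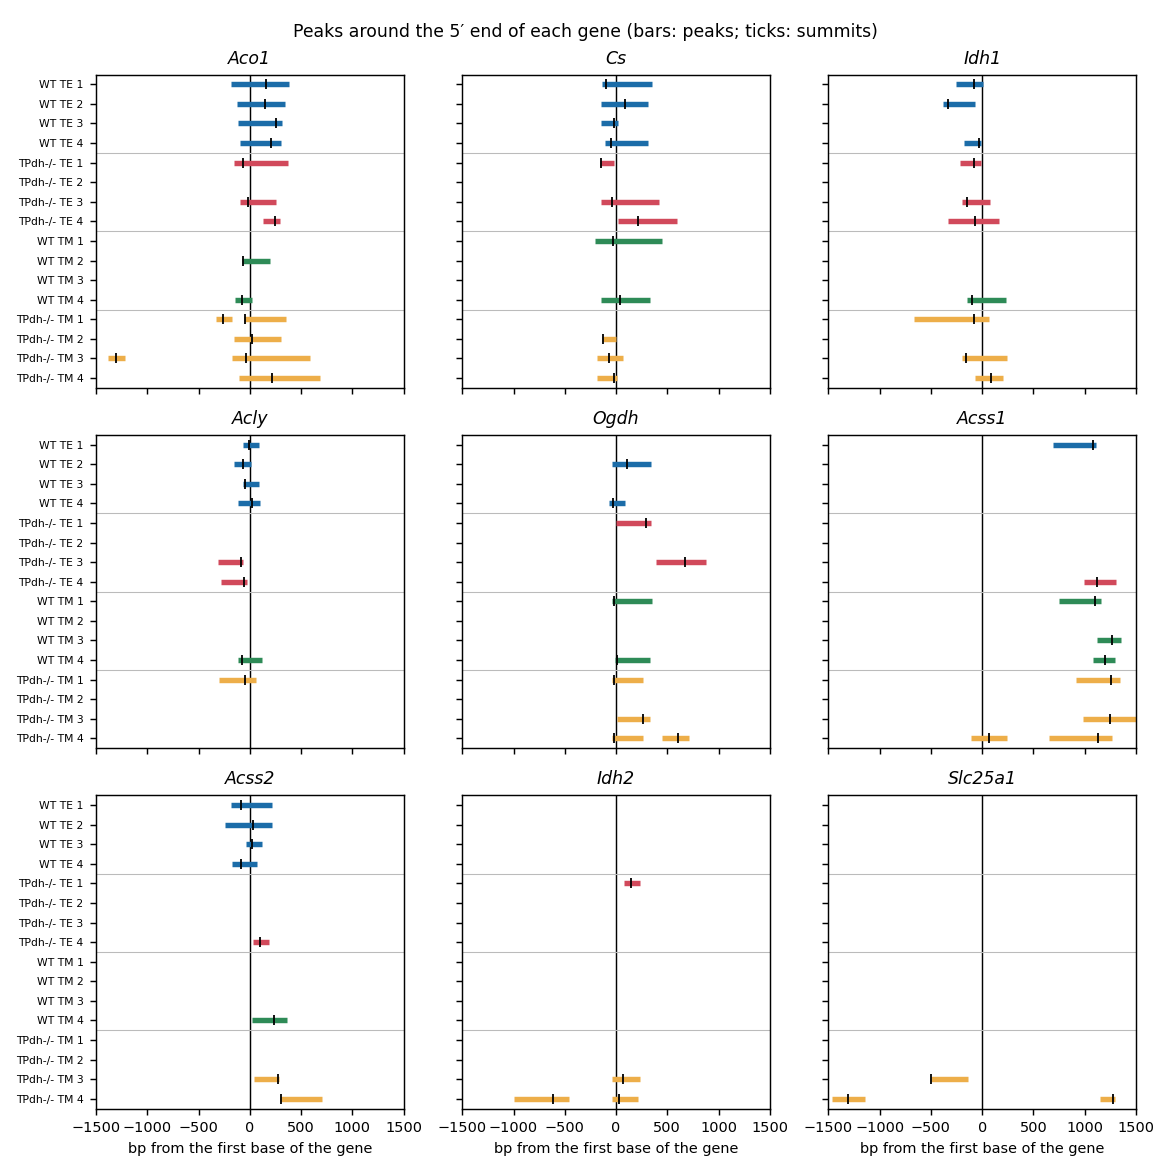
Peaks around the 5′ end of the 9 genes. The x axis is the distance in bp from the first annotated base, positive into the gene, each row is a library, bars are the extent of the peaks in the colour of the group and ticks are the summits; Acss1 peaks gather 1077 to 1264 bp into the gene, and Idh2 and Slc25a1 have 4 and 3 summits in the range plotted.

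Motifs were searched on both strands of promoter windows reaching from 250 bases before to 50 bases after each RefSeq start, for which all 9 members matched by symbol. Of 20150 such windows of coding genes, 47.8% held a GC box (GGGCGG), 37.8% a CCAAT box (CCAAT), 21.7% an ETS core (CGGAAG), 9.96% an NRF1 core (TGCGCA), 24.2% the core of the cAMP response element (TGACG), 12.1% a TATA box (TATAAA) and 7.0% an AP-1 site (TGANTCA). Each of the 9 members had a GC box in at least 1 of its windows, and none had a TATA box or an AP-1 site. GC content of their windows ran from 49.3% to 72.3%, against a median of 57.0% over all windows. The most widely held starts did not have the most CpG dinucleotides, since the window of Aco1 held 14, the median over all windows, and that of Slc25a1 held 30. These are counts of letters in fixed windows, and no binding was measured.

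The first comparison was of genotypes in TE cells. Idh2 was held in its window by 4 of 4 TPdh-/- TE libraries and by 0 of 4 WT TE libraries, and it was the single member that passed Fisher's exact test in this comparison (two-sided, unadjusted p = 0.0286, the smallest that 4 against 4 libraries allow, and 0.890 adjusted over all genes). Of all genes, 3.18% passed at the same threshold, beside 1 of 9 members. Fold enrichment of the strongest Idh2 peak was 4.57, 3.41, 4.34 and 4.84 in the TPdh-/- TE libraries, a mean log2 value of 2.09 ± 0.223 (SD, n = 4) against 0 in WT TE, where 0 stands for no peak. The permutation test over 70 arrangements gave an unadjusted exact p of 0.0286 and an adjusted p of 0.514, beside 5.56% of all genes. The 4 peaks lay at 4 different places, 151 bp, 10193 bp, 23941 bp and 7424 bp after the start, and rested on 6, 3, 5 and 6 fragments. Idh2 did not pass with peaks at a fold enrichment of at least 5, at a −log10 q of at least 5 or in lists cut to 2290 peaks each, under each of which 0 of 4 libraries in both groups held it.

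At the starts, the same comparison ran the other way for other members, as it did for most of the genes that passed there. No member passed the held test at a start (0.278% of all genes did). By strength at a start, which 0.875% of all genes passed, Acss2 was lower in TPdh-/- TE than in WT TE, at a difference of −2.01 on the log2 scale, with means of 0.463 ± 0.926 and 2.47 ± 0.289 (SD, n = 4 each), and so was Aco1, at −1.14, with means of 1.67 ± 1.12 and 2.81 ± 0.507. Both had the smallest exact permutation p of 0.0286 and an adjusted p of 1. Their groups did not overlap, and Acss2 was compared over a start that Ggt7 shares. Without TPdh-/- TE replicate 2, which had no start peak of either gene, the difference of Aco1 was −0.59 (exact permutation p = 0.114) and that of Acss2 −1.85 (exact permutation p = 0.0286). In lists of equal length, and by any peak in the window, Cs and Aco1 were held by 4 of 4 WT TE libraries and by 0 of 4 TPdh-/- TE libraries (Fisher's exact p = 0.0286, unadjusted, and 1 adjusted), beside 0.675% of all genes. Directions in TE thus depended on the measure. Idh2 was higher in TPdh-/- by any peak in the window, and Acss2 and Aco1 were lower at their starts. The genes that passed over the whole series turned the same way. By the strongest peak in the window, 1085 of the 1220 genes that passed were higher in TPdh-/- TE. By strength at a start it was 22 of 192, and in lists of equal length 11 of 148. The background coverage of the 2 groups did not overlap either, at 0.636 to 1.55 in WT TE and 0.173 to 0.419 in TPdh-/- TE, and its part in these differences was not tested. Without TPdh-/- TE replicate 2 and WT TE replicate 3, the difference of Idh2 was 2.2, at an exact permutation p of 0.100, the smallest that 3 against 3 libraries allow.

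**Figure D3:**
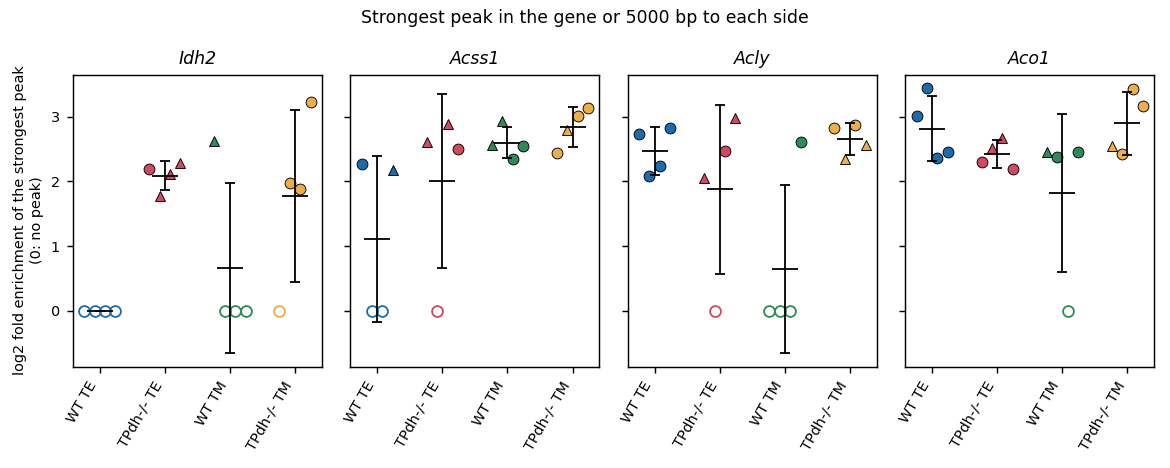
Log2 fold enrichment of the strongest peak in the gene or 5000 bp to each side for Idh2, Acss1, Acly and Aco1, by group. Each symbol is a library, circles are peaks within 1000 bp of an annotated start of the gene, triangles are peaks elsewhere, open circles at 0 are libraries without a peak, and bars are the mean ± SD of 4 libraries; Idh2 is at 0 in all WT TE libraries, and 3 of its 4 TPdh-/- TE peaks lie away from a start.

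In TM cells, no member passed any of the 4 tests of TPdh-/- against WT. Of all genes, 1.15% passed for peaks held in the window, 0.561% for peaks held at a start, 2.72% for the strongest peak and 0.989% for the strongest peak at a start. All 4 TPdh-/- TM libraries held Acly, Acss1, Acss2, Cs, Idh1, Aco1 and Ogdh in their windows. Of the 9 members, 8 or 9 were held in each TPdh-/- TM library, and 7, 7, 1 and 7 in WT TM replicates 1 to 4. These counts did not overlap, and neither did the shares of all coding genes held, at 61.6% to 67.3% in TPdh-/- TM and 21.4% to 60.4% in WT TM. The largest difference was that of Acly, held in the window by 4 of 4 TPdh-/- TM and 1 of 4 WT TM libraries, at mean log2 values of 2.65 ± 0.244 and 0.650 ± 1.3 (exact permutation p = 0.0857, 0.899 adjusted, n = 4 each). The 4 strongest TPdh-/- TM peaks of Acly lay at 4 different sites, 1 at its outermost start and the others 47261, 48860 and 50348 bp inside the gene. Within 1000 bp of any start, Acly was held by 2 TPdh-/- TM and 1 WT TM libraries (Fisher's exact p = 1). Without WT TM replicate 4, the single WT TM library with an Acly peak, Acly passed Fisher's exact test and the exact permutation test, each at p = 0.0286, unadjusted, and Ogdh passed the latter at a difference of 0.93. The shares of all genes that passed were also higher without this library, as given in the closing section.

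Over both cell types together, with genotypes permuted within cell type, Idh2 again was the single member that passed. It was held by 7 of 8 TPdh-/- and 1 of 8 WT libraries (exact permutation p = 0.0135, 0.462 adjusted), where 8.31% of all genes passed, and by strength the difference was 1.60 (exact permutation p = 0.0118, 0.243 adjusted, n = 8 each), where 14.3% of all genes passed. At its starts Idh2 was held by 4 of 8 TPdh-/- and 0 of 8 WT libraries, which did not pass (exact permutation p = 0.0714). At starts, 0.816% of all genes passed the held test and 1.24% the strength test, and no member did. The median difference in strength, TPdh-/- less WT, was 0.57 on the log2 scale over the 9 members and 0.50 over all genes. Taken by cell type, it was 0.86 over the members and 0.48 over all genes in TM, and 0.03 and 0.50 in TE. These medians moved with single libraries. Without WT TM replicate 3 the TM values were 0.25 and 0.31, without TPdh-/- TE replicate 2 the TE values were 0.73 and 0.66, and without WT TE replicate 3 they were −0.55 and 0.44. Without all 3 libraries the TE values were 0.03 and 0.57, and those over both cell types 0.51 and 0.42.

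TM and TE cells of the same genotype were compared next. In WT, Acss1 had its strongest peak at fold enrichments of 5.90, 7.63, 5.09 and 5.84 in TM, and at 4.81 and 4.53 in TE replicates 1 and 4 with no peak in the other 2. The difference of 1.49 on the log2 scale was at the smallest exact permutation p of 0.0286 (0.944 adjusted, n = 4 each), and 3.03% of all genes passed. TM replicates 1 and 2 owed their value to peaks 52003 and 33716 bp into or past the gene, and the call was lost at the starts (exact permutation p = 0.143) and when any 1 of the WT TM libraries was left out (exact permutation p = 0.143 to 0.171). No member passed for peaks held in the window (1.21% of all genes), at a start (0.278%) or for strength at a start (0.752%). In TPdh-/- cells no member passed for peaks held in the window (0.479%), at a start (0.415%) or for the strongest peak (2.34%). At the starts Aco1 was stronger in TPdh-/- TM than in TPdh-/- TE by 1.17, with means of 2.84 ± 0.540 and 1.67 ± 1.12 (exact permutation p = 0.0286, adjusted p = 1, n = 4 each), beside 1% of all genes. Without TPdh-/- TE replicate 2, which had no Aco1 start peak, the difference was 0.61 (exact permutation p = 0.143). None of the 8 T cell markers passed a held test or the test of the strongest peak between groups.

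Whether the effect of genotype differed between TM and TE was tested on the strongest peak of each member in all 16 libraries. Acly and Aco1 passed at an unadjusted p under 0.05 by permutation of residuals, as did 9.84% of all genes, and neither passed after adjustment over all genes. For Acly, TPdh-/- less WT was 2.00 in TM and −0.59 in TE, a difference of 2.60 (permutation p = 0.0107, adjusted p = 0.292). Without TPdh-/- TE replicate 2, the single TE library with no Acly peak, its value in TE was 0.03. For Aco1 it was 1.07 in TM and −0.40 in TE, a difference of 1.47 (permutation p = 0.0238, adjusted p = 0.353). Without WT TM replicate 3, which had no Aco1 peak, its value in TM was 0.47 and the difference 0.86 (permutation p = 0.0403). Without the 3 libraries that held few genes, the differences were 1.83 and 1.05 (permutation p = 0.0436 and 0.0261). For the strongest peak anywhere in the window, Aco1 did not pass when WT TE replicate 2, TPdh-/- TE replicate 4 or TPdh-/- TM replicate 3 or 4 was left out (permutation p = 0.0504 to 0.060). At the starts alone, the difference of Aco1 was 2.78 (permutation p = 0.00492, adjusted p = 0.637), that of Acss2 2.29 (permutation p = 0.0393, adjusted p = 0.908) and that of Acly 2.16 (permutation p = 0.0823), beside 4.96% of all genes that passed unadjusted.

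**Figure D4:**
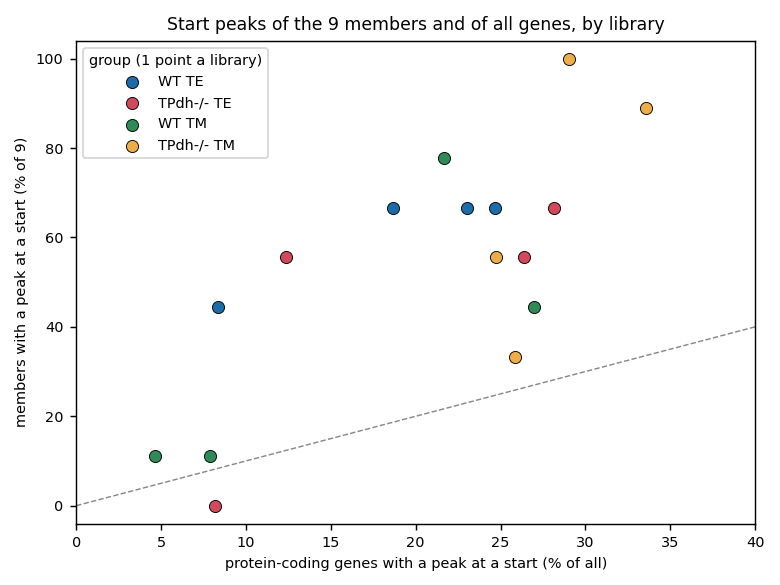
Share of the 9 members with a start peak (y axis, %) against the share of all 21938 protein-coding genes with one (x axis, %), 1 point a library, coloured by group; the dashed line marks equal shares. All libraries lie above the line but TPdh-/- TE replicate 2, with 0 members at 8.17% of genes.

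Counted by library, WT TE held 6, 6, 4 and 6 members at a start, TPdh-/- TE libraries 5, 0, 5 and 6, WT TM libraries 4, 1, 1 and 7, and TPdh-/- TM libraries 5, 3, 9 and 8. The ranges of the 4 groups overlapped. As a share of each group's peaks in the member windows, 25 of 31 (80.6%) lay near a start in WT TE, 17 of 53 (32.1%) in TPdh-/- TE, 13 of 38 (34.2%) in WT TM and 33 of 88 (37.5%) in TPdh-/- TM. The same split between WT TE and the other groups was in all peaks of the lists, as given above.

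Of the 31 other genes of the pathway, Mpc2, a subunit of the mitochondrial pyruvate carrier, was held at a start in 15 libraries, and Pdhb, the E1 beta subunit of the pyruvate dehydrogenase complex, and Hmgcs1, the cytosolic synthase of the mevalonate pathway, in 14 each. Pdha1, the gene deleted in TPdh-/- T cells, had a start peak in 3 TPdh-/- TM libraries and in 1 library of each of the other groups, and a peak at the start does not check a deletion inside the gene. The counts of these genes below stand beside shares of all genes that passed the same test in either direction. In TE cells, 0 of the 31 passed as held more and 0 as held less in the window, and 1 as held less at a start in TPdh-/-, beside 3.18% and 0.278% of all genes. That gene was Dld, the E3 subunit shared by both dehydrogenase complexes, held at its start by 4 of 4 WT TE and 0 of 4 TPdh-/- TE libraries. In TM cells 1 of the 31 passed as held more in the window, beside 1.15% of all genes, which was Sdha, the catalytic subunit of succinate dehydrogenase, held by 4 of 4 TPdh-/- TM and 0 of 4 WT TM libraries. Pcx, pyruvate carboxylase, which makes oxaloacetate from pyruvate, was held at its start by 4 of 4 WT TE and 0 of 4 WT TM libraries, beside 0.278% of all genes. Each had an unadjusted Fisher's exact p of 0.0286 and an adjusted p of 1. By strength of the strongest peak, 1 of the 31 passed as stronger and 2 as weaker in TPdh-/- TE than in WT TE, beside 5.56% of all genes. These were Suclg2, a subunit of succinyl-CoA ligase, at 2.04 on the log2 scale, Idh3a, the catalytic subunit of the NAD-dependent isocitrate dehydrogenase, at −1.91, and Acat2, the cytosolic acetoacetyl-CoA thiolase, at −1.67. In TM, 2 of the 31 passed as stronger in TPdh-/- and 0 as weaker, beside 2.72% of all genes, Sdha at 2.63 and Pcx at 1.14. In WT, 0 passed as stronger and 2 as weaker in TM than in TE, beside 3.03% of all genes, Acat2 at −1.61 and Hmgcs1 at −1.05, and in TPdh-/- cells none of the 31 passed either way, beside 2.34%. Each of these had an unadjusted exact permutation p of 0.0286, with adjusted p from 0.514 to 0.944. Over both cell types, 2 of the 31 passed as held more in TPdh-/- (Sdha and Sdhc), beside 8.31% of all genes. At a start, 1 passed as held more (Sdhc, a membrane subunit of succinate dehydrogenase) and 1 as held less (Dld), beside 0.816%. By strength 3 passed as stronger (Suclg2 at 1.35, Sdha at 1.31 and Sdhc at 1.3), beside 14.3%. Each had an adjusted p of 0.191 or above by exact permutation. Over both cell types, the counts held in the window and by strength were no higher a share of the 31 than of all genes. The count at a start was a higher share, as were some counts of the single comparisons above, such as the 2 of 31 by strength in TM beside 2.72%.

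**Figure D5:**
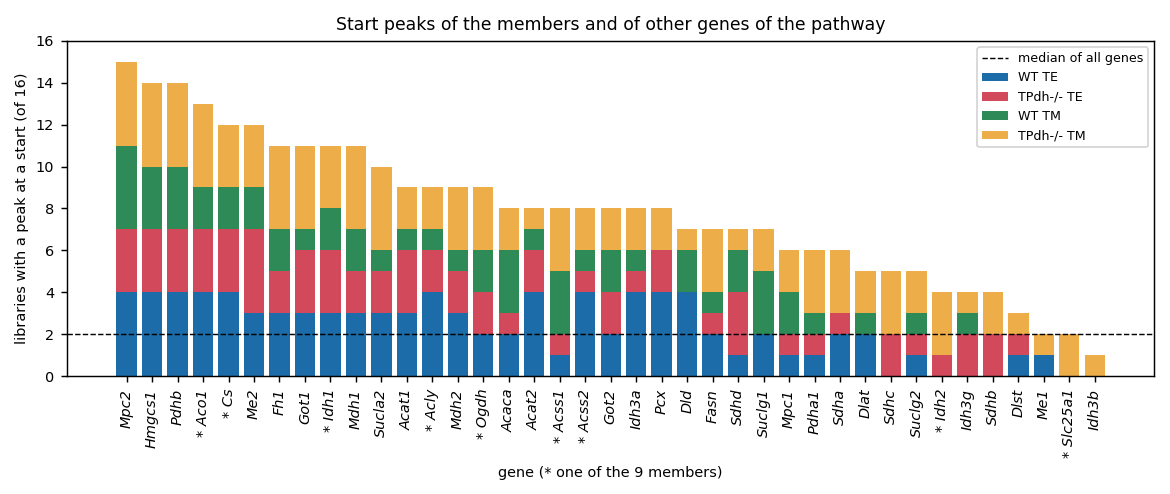
Number of libraries, of 16, with a start peak for the 9 members (starred) and for other genes of the pathway, stacked by group; the dashed line is the median of all protein-coding genes, 2 libraries. Mpc2 reaches 15, Aco1 13 and Slc25a1 2.

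The genes whose strength at a start went most with that of Aco1 over the 16 libraries were Rundc3b, Rab28 and Usp22, with Spearman's rho of 0.878, 0.853 and 0.852. They were the 3 highest of all coding genes, and the 16 points share the depth and length of their lists.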

How the data were processed

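ATAC-seq was run on 16 libraries of mouse T cells, and the deposited peak lists were used. Per the methods and the submitters' processing notes, the authors trimmed reads with Trimmomatic, aligned them to GRCm38 with BWA (0.7.17), removed ambiguous and blacklisted reads, and called peaks for each library with MACS2 (2.2.7.1). A control, duplicate removal and a transposase offset were not given in the sources used here. The authors deposited a fold enrichment (ratio) and a −log10 p-value and −log10 q-value for each peak. Lists were not scaled between libraries. Since the deposited p and fold fix the summit pileup, pileups were solved as whole numbers (within 0.05 for at least 98.9% of peaks in every library) and the lowest background served as depth. Read totals were not analysed here.

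Groups and replicate numbers came from titles. All tests ran on 21938 genes with Python 3.11.15 and scipy 1.17.1 (Fisher's exact test or exact permutation, two-sided, and 100000 resamples for the difference between cell types), with Benjamini-Hochberg adjustment over all genes, and were tested on simulated data. The text names the 9 members, the pathway genes held by 4 libraries of a group and 0 of the other, neighbours with a summit within 1000 bp of their start and the 3 genes most like Aco1. The other pathway genes (Mpc2, Pdhb, Hmgcs1, Pdha1, Suclg2, Idh3a, Sdhc and Acat2) were named after their values were seen. The members and lists were chosen with earlier results of these data known. Alternatives were other windows, thresholds, strength measures, equal lists, left-out libraries and a replicate block. A few results of listed genes are not reported here.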

Additional observations from a re-analysis of the deposited data

Results flagged for a closer look

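The counts below stood apart from the other 3 libraries of their group, out of 22 groups looked at. They are small whole numbers in which the other 3 libraries often tie, so no chance rate is given. TPdh-/- TE replicate 2 held 2 of the 9 members in their windows while the other 3 libraries each held 9, and held 0 at a start. WT TM replicate 3 held 1 member while the other 3 each held 7. WT TE replicate 3, the shortest list with 2290 peaks, held 4 members at a start while the other 3 held 6.

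The effect of genotype on the strongest peak differed between TM and TE cells for 2 members by an unadjusted permutation test, by 2.60 on the log2 scale for Acly and by 1.47 for Aco1. Adjusted over all genes the values were 0.292 and 0.353, and 9.84% of all genes passed unadjusted. For Acly, 3 of 4 WT TM libraries had no peak while all 4 TPdh-/- TM and all 4 WT TE libraries had 1.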

How the results depend on the processing

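The share in brackets beside a count is that of all genes passing the same test unadjusted. Of the counts below, the main analysis called 0 members held in TM, 1 in TE, 0 for WT TM against WT TE, 0 for TPdh-/- TM against TPdh-/- TE and 1 over both cell types (Idh2 each time), and by strength 0, 1, 1, 0 and 1, with 2 differences between cell types. For genotype in TE, the count held was 0 at starts, 0 at a −log10 q of at least 5, 0 at a fold enrichment of at least 5 and 2 in equal-sized lists (0.675%, Cs and Aco1, both lower in TPdh-/-). By strength it was 2 with −log10 q (6.15%, Idh2, and Acss2 lower) and 2 at starts (0.875%, Acss2 and Aco1, both lower). Over both cell types, the count held was 0 at starts and 0 at a −log10 q of at least 5. At a fold enrichment of at least 5 the 1 member called was Acss2 (1.19%) and in equal-sized lists it was Cs (0.46%), both lower in TPdh-/-. By strength over both cell types it was 2 with −log10 q (15.1%), 2 with the lowest fold enrichment in place of no peak (21.2%), 4 with percentiles (19.0%) and 0 at starts. For WT TM against WT TE, the count held was 1 at a fold enrichment of at least 5 (0.775%, Acss1) and 1 in equal-sized lists (0.679%, Aco1, lower in TM), and by strength 0 with −log10 q and 0 at starts. By strength, genotype in TM gave 1 with percentiles (4.85%, Aco1), TPdh-/- TM against TPdh-/- TE gave 1 at starts (1%, Aco1), and the difference between cell types gave 1 with percentiles (9.33%) and 2 at starts (4.96%, Aco1 and Acss2).

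Leaving out 1 library at a time gave 0 to 1 held and 0 to 2 by strength for genotype in TM, 1 to 1 and 1 to 2 in TE, 0 to 1 and 0 to 2 for WT TM against WT TE, and 1 to 2 and 1 to 3 over both cell types, with 1 to 2 for the difference between cell types. No shares of all genes stand beside these ranges, so they cannot be set against the general rate. WT TM replicate 4 decided the first of these, since without it Acly was called in TM (held, 2.25%, and by strength, 4.5%) and for WT TM against WT TE (held, lower in TM). Leaving out the 3 libraries that held few members or genes, singly for the values at starts and the medians or together, was chosen after seeing the data, as were the alternatives for the difference between cell types. Without all 3, genotype in TE gave 0 held and 0 by strength, WT TM against WT TE gave 0 by strength, and both cell types together gave 3 by strength (9.08%). Where 3 libraries face 3, no p under 0.100 can be had.

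Groups shared replicate numbers, but no label says whether these pair the libraries, and they were treated as unpaired. Low correlations between libraries of the same number cannot exclude a pairing. The correlations of deviations ran from -0.0498 to 0.142 over 16 pairs, 1 was over 0.1, and in 4 of the 16 pairs, 3 of them of TPdh-/- TM with TPdh-/- TE, the TM library correlated best with its own number in the other group. With a replicate block, members called fell to 0 in TE and over both cell types, held and by strength, and to 0 by strength for WT TM against WT TE, where 4 pairs allow no p under 0.125. No result reversed for a gene called in the main analysis. Low pileups limit the peaks away from starts, of which 50 of 122 rested on 4 or fewer fragments.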
